A study of Mus musculus with 6 samples.

Results

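Macrophage and leukocyte genes were examined in RNA sequencing of isolated mouse pancreatic islets. The genes were a fixed list of 37 symbols for the surface receptors, adaptor chains, secreted proteins and antigen presentation genes of macrophages and of leukocytes in general, taken as the rows of the expression table that carried one of these symbols. Of the 37 symbols, 35 had a row among 16547 genes in all. Adgre1 is the present symbol of the gene that the table names Emr1, so the list holds 36 genes, and Cd163, a scavenger receptor for haemoglobin, was the 1 gene with no row and was not analysed here. The study compared 3 libraries of control islets (Kcnj11 fl/fl, here WT), in which the Kcnj11 gene is floxed, with 3 libraries of islets that lack Kcnj11 in beta cells (BetaKcnj11 -/-, here bKO). Kcnj11 encodes the subunit that forms the pore of KATP channels, which ATP closes. All mice were C57BL/6 and 11 to 12 weeks old, and all islets were freed with collagenase, picked by hand and kept in RPMI medium for 2 days before RNA was taken. The labels name neither the driver of the deletion nor the number of animals behind a library, so the p-values measure the spread between these libraries, which may in part be technical.

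Macrophages are the main leukocytes that reside in the healthy islet, where they lie beside vessels, take up secreted granule material and present antigen on class II molecules. Their identity depends on the transcription factor PU.1, encoded by Spi1, and on signals through the receptor Csf1r. Much of what they sense passes through receptors that pair with the adaptor chains Tyrobp (DAP12) and Fcer1g, which carry tyrosine motifs (ITAMs) for the kinase Syk. C1qa, C1qb and C1qc are the chains of C1q, the first component of complement, for which macrophages are a main source.

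PU.1 binds purine-rich DNA with the core GAGGAA. RefSeq promoter windows of GRCm38.p6 were at hand for 25 of the 35 genes, and the 250 bases before the start held GAGGAA on either strand in 14 of these 25 genes (56%), against 6986 of 27025 genes in the table (25.9%). The longer form GAGGAAGT, which contains GAGGAA, was in 1 of 25 genes (4%), C1qc, against 2.79% of all genes. Cd14, Emr1, Csf1r, C1qa, Tyrobp, Cd74, H2-Ab1, Cd52, Lst1 and Spi1 were without a window. A match is a run of letters and does not show binding. The windows of Trem2 and Cd68 are shown because these genes had the smallest p-values of the list, and that of C1qc because it held the longer form. Those of Lyz1 and Lyz2 are shown because they belong to neighbouring paralogs: 200 of 252 aligned positions (79.4%) were identical. Each window ends at the base before the start and runs 5′ to 3′ in the direction of the gene, and capitals mark GAGGAA or its reverse complement TTCCTC.
Trem2, chr17:48346151-48346400, plus strand: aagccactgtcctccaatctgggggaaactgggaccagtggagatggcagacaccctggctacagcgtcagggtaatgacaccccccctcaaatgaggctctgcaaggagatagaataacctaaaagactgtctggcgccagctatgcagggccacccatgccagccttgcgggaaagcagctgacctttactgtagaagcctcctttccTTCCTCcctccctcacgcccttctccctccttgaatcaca
Cd68, chr11:69666171-69666420, minus strand: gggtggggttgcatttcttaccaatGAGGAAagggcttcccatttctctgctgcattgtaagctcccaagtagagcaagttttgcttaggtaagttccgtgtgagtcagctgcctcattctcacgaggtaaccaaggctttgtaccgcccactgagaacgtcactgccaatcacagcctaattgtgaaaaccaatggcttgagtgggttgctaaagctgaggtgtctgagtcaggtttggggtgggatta
C1qc, chr4:136892915-136893164, minus strand: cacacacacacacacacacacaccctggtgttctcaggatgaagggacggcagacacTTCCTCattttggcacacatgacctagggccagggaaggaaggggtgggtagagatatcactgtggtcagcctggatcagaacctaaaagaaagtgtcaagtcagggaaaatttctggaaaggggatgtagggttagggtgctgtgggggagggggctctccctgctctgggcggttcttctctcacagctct
Lyz1, chr10:117292869-117293118, minus strand: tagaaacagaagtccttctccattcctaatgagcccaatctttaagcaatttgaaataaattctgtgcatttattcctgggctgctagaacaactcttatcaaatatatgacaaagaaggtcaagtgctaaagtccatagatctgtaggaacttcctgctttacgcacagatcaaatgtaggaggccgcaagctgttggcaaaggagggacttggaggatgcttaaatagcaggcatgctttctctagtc
Lyz2, chr10:117282273-117282522, minus strand: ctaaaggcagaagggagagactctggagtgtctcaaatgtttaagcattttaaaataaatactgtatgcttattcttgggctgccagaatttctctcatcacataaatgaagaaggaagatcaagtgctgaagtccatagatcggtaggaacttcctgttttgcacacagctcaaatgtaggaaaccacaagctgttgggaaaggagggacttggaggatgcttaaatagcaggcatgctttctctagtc

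Kcnj11, the targeted gene, was at 19.7, 24.7 and 25.4 FPKM across the 3 WT libraries and at 3.45, 5.31 and 3.51 FPKM across the 3 bKO libraries, with no overlap (log2 difference -2.35, SE 0.17, limma adjusted p = 0.0250). The adjusted p missed the threshold when WT replicate 2 (0.0771) or 3 (0.096) was left out, when bKO replicate 1 (0.228) or 3 (0.175) was, and when those last bKO libraries were averaged (0.217). FPKM counts fragments scaled to transcript length and to the mapped reads of the library. Values of single libraries are always given in the order of replicates 1, 2 and 3. From the steps between low FPKM values, the depth was estimated as 23900000 to 40100000 fragments per library, with the highest in bKO replicate 2. Profiles of bKO replicates 1 and 3 were the closest of all pairs, at a Pearson r across genes of 0.99857, where the remaining 14 pairs lay between 0.98147 and 0.99569. With this pair averaged as 1 sample, the median difference of the list was -0.21, 11 of its genes (31.4%) were lower without overlap, against 14.5% of all genes with the pair averaged, and 0 were called. Differences below are bKO minus WT on the scale of log2(FPKM + 1) after quantile normalization, which understates the change of low genes, and a gene is called at a limma adjusted p below 0.05 over 15962 genes.

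All 35 genes were above 0 in all 6 libraries, as were 15962 of the 16547 genes in the table. Together they made up 0.0337% to 0.0471% of the summed FPKM of a library. In WT, 11 genes had a mean of at least 10 FPKM, 19 lay from 1 to 10 and 5 lay under 1. The highest were C1qa (43.2 ± 10.3 FPKM in WT, SD, n = 3) and Lyz2, the lysozyme of myeloid cells (38.7 ± 13.5). The lowest were Cx3cr1, the receptor of fractalkine (0.20 ± 0.096), and Mrc1, the mannose receptor (0.50 ± 0.12). Of 27 genes with a single transcript of known length, 13 rested on fewer than 100 estimated fragments in some library, down to 7 to 18 for Lst1 and 14 to 24 for Lyz1.

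**Figure D1:**
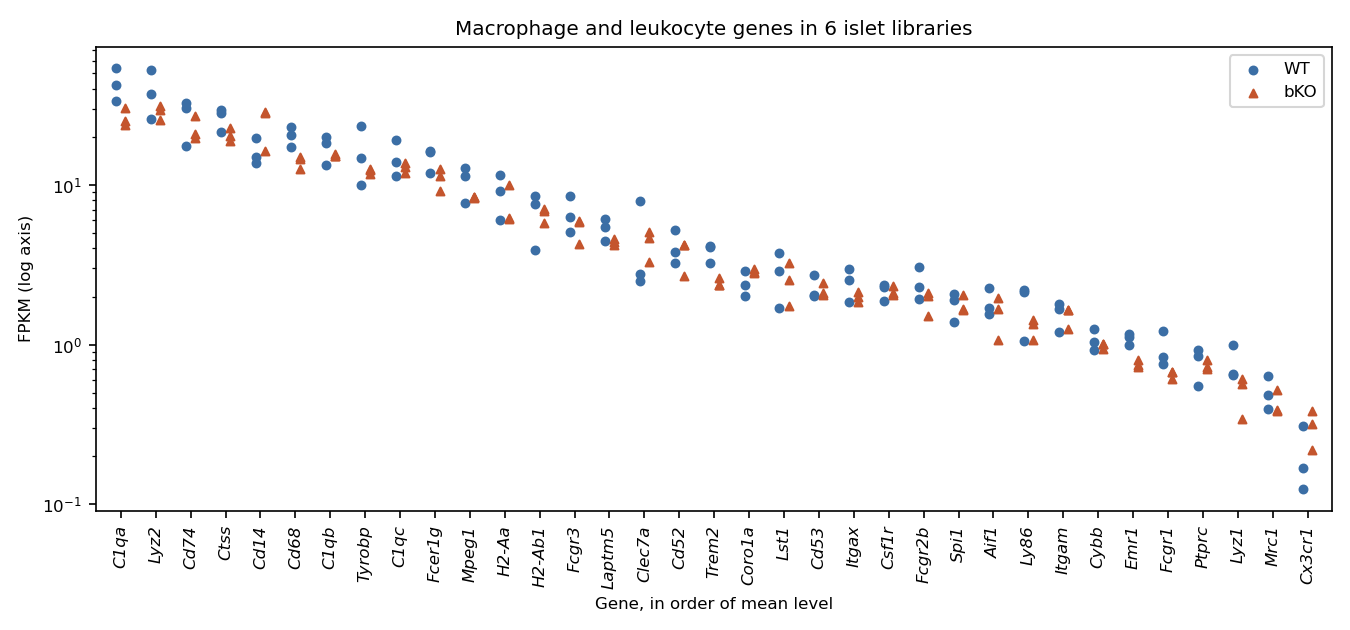
FPKM on a log axis for the 35 genes in order of their mean level, with circles for the 3 WT and triangles for the 3 bKO libraries. The genes span from C1qa, at 23.9 to 54.0 FPKM, to Cx3cr1, at 0.12 to 0.38 FPKM. In 32 genes the highest of the 6 points is a WT library, and the share over all genes was not counted.

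No member passed the threshold in the comparison of bKO with WT islets, where limma called 0 of 35, against 0.194% of all genes tested (0.132% lower and 0.0626% higher). The differences were negative in 31 of 35 genes (88.6%), where 53% of all genes were negative, and positive in 4, where 47% were, and their median was -0.27, against -0.0084 over all genes. An unadjusted p below 0.05 was reached by 10 genes on the lower side (28.6%), against 9.17% of all genes, and by 0 on the higher side, against 5.05%. The 10 became 6 (17.1%) without quantile normalization, against 5.11% of all genes, and 6 without bKO replicate 1, against 5.02%. The bKO values were all below the WT values in 8 genes (22.9%) after normalization, against 12.6% of all genes, and all above in 0, against 7.1%. In the deposited FPKM, 6 genes were lower without overlap (17.1%), against 6.48% of all genes, and 0 were higher, against 15.3%. In bulk RNA, fewer cells of a type and less RNA per cell cannot be told apart.

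The WT libraries differed among themselves more than the bKO libraries did. The FPKM of the 35 genes summed to 349, 319 and 268 across the 3 WT libraries and to 252, 253 and 259 across the 3 bKO libraries. WT replicate 1 held the highest value of 20 genes, and WT replicate 3 the lowest value of 13. The SD of WT exceeded that of bKO in 33 of 35 genes. The matching shares over all genes were not counted, so these counts are not shown to be particular to the list. Across all genes, WT replicate 1 correlated with WT replicates 2 and 3 at 0.98627 and 0.98308, and these 2 with each other at 0.99569. The bKO pairs lay between 0.99302 and 0.99857. On the normalized scale the median over the genes, relative to the WT mean, was 0.14, 0.040 and -0.13 across the 3 WT libraries, and -0.26, -0.21 and -0.23 across the 3 bKO libraries. WT replicate 3 thus lay between the other WT libraries and the bKO libraries. Without it, 22 genes (62.9%) were lower without overlap, against 21.3% of all genes under the same setting, and 17 (48.6%) were lower at an unadjusted p below 0.05, against 10.4%. Without WT replicate 1 the median difference was -0.17. In that setting 11 genes (31.4%) were lower without overlap, against 19.4% of all genes, and 1 (2.86%) was higher, against 15.4%. At an unadjusted p below 0.05, 8 (22.9%) were lower, against 8.82% of all genes, and 1 was higher, where 7.96% of all genes were.

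**Figure D2:**
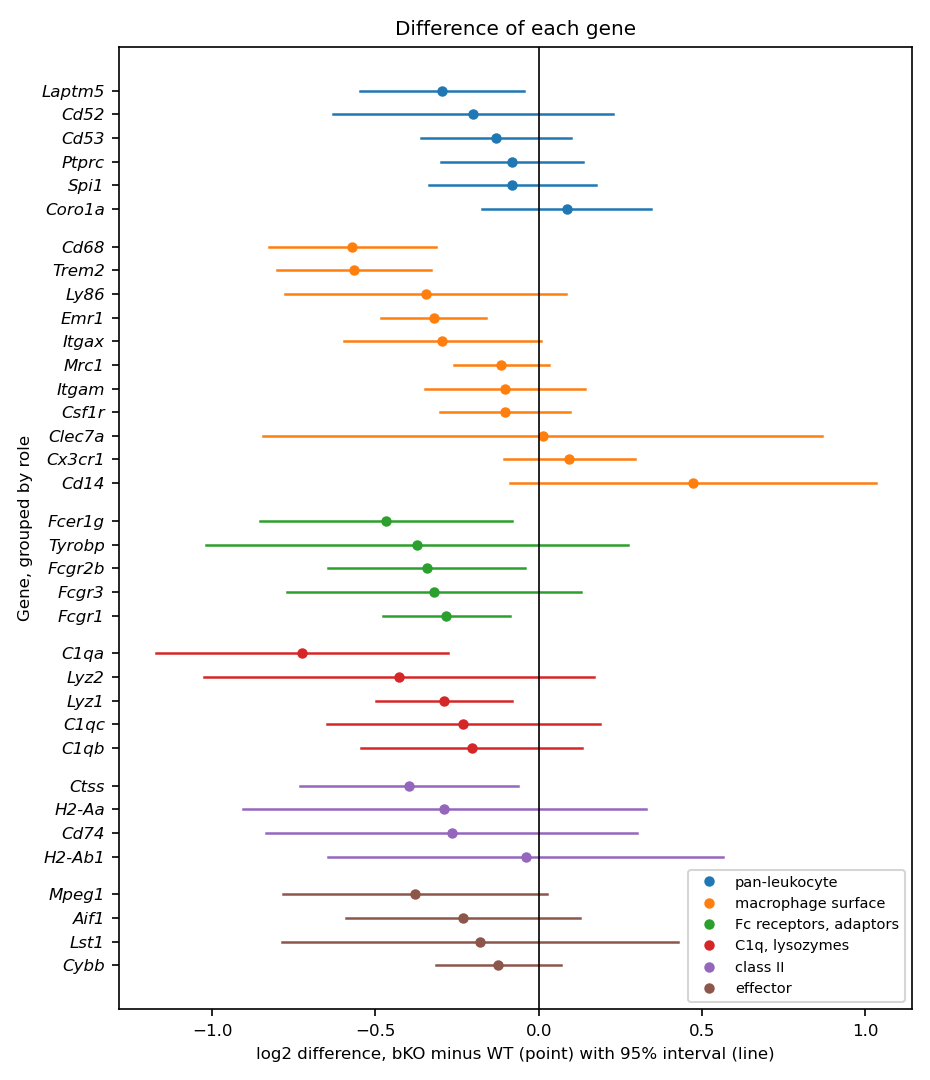
Log2 difference of bKO minus WT for each gene (point) with its 95% interval (line), grouped by role. The interval lies below 0 for 10 genes, above 0 for none, and holds 0 for 25.

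The 6 pan-leukocyte genes, Spi1 among them, had bKO means of 0.828 to 1.18 of WT. After normalization 1 of the 6 was lower without overlap, where 12.6% of all genes were. Ptprc, which encodes CD45, the phosphatase of all leukocytes, was at 0.84, 0.92 and 0.55 FPKM across the 3 WT libraries and at 0.70, 0.80 and 0.72 FPKM across the 3 bKO libraries. The bKO values lay within the WT range (log2 difference -0.082, 95% interval -0.30 to 0.14). Spi1 was at 1.78 ± 0.36 FPKM in WT, against 1.78 ± 0.22 in bKO (SD, n = 3 each), with a difference of -0.080 whose sign turned without quantile normalization. Here and below, a pair of means gives WT first. Coro1a, an actin-binding protein of leukocytes, was at 2.42 ± 0.45 and 2.87 ± 0.079 FPKM, and Cd53, a tetraspanin, at 2.27 ± 0.40 and 2.20 ± 0.20. Cd52, a small glycoprotein of the lymphocyte and macrophage surface, was at 4.08 ± 1.02 and 3.70 ± 0.89. Laptm5, a lysosomal membrane protein of leukocytes, was the lowest relative to WT, at 6.10, 5.43 and 4.47 FPKM across the 3 WT libraries and 4.62, 4.23 and 4.40 FPKM across the 3 bKO libraries. Its deposited values overlapped, while its normalized values did not (log2 difference -0.30, limma adjusted p = 0.282).

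Among the macrophage surface genes, Trem2, Cd68 and Emr1 had the clearest separation, and Csf1r had none. Trem2, a lipid receptor that signals through Tyrobp, was at 4.07, 4.15 and 3.23 FPKM across the 3 WT libraries and at 2.38, 2.63 and 2.37 FPKM across the 3 bKO libraries. Every bKO library lay below every WT library, at 0.644 of the WT mean (log2 difference -0.57, SE 0.099, limma adjusted p = 0.0968). Cd68, a glycoprotein of the macrophage endosome and lysosome, was at 17.3, 20.7 and 23.0 FPKM across the 3 WT libraries and at 14.5, 12.6 and 15.0 FPKM across the 3 bKO libraries. It did not overlap either, with WT replicate 1 the lowest of the WT libraries (log2 difference -0.57, SE 0.11, limma adjusted p = 0.107). Emr1, which encodes F4/80, the classical marker of mouse macrophages, was at 0.9995, 1.12 and 1.17 FPKM across the 3 WT libraries and at 0.74, 0.72 and 0.80 FPKM across the 3 bKO libraries, again without overlap and with WT replicate 1 the lowest of WT (log2 difference -0.32, SE 0.067, limma adjusted p = 0.12). Csf1r was at 2.17 ± 0.27 FPKM in WT, against 2.15 ± 0.16 in bKO (SD, n = 3 each), with a 95% interval of -0.30 to 0.097 for the log2 difference. Over the 14 alternative settings the adjusted p of Cd68 ranged from 0.0639 to 0.424, that of Trem2 from 0.0865 to 0.431 and that of Emr1, in 13 settings, from 0.0816 to 0.477.

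The other surface genes overlapped between the groups. Ly86, which encodes MD-1, the partner of a Toll-like receptor homologue, was at 1.79 ± 0.65 FPKM in WT, against 1.28 ± 0.19 in bKO. The integrin chains Itgax (CD11c) and Itgam (CD11b) were at 2.44 ± 0.57 and 1.56 ± 0.31 FPKM in WT, against 2.00 ± 0.15 and 1.51 ± 0.22 in bKO. Mrc1 was at 0.43 ± 0.077 FPKM in bKO. Clec7a, the beta-glucan receptor Dectin-1, rested on 1 library: it was at 7.97, 2.77 and 2.50 FPKM in WT, against 5.09, 3.31 and 4.68 in bKO, so that WT replicate 1 stood above the other 5 libraries. Its log2 difference was 0.012 with all libraries and 0.44 without WT replicate 1, and it was negative without WT replicate 2 (-0.17), WT replicate 3 (-0.23) or either of bKO replicates 1 (-0.082) and 3 (-0.033); averaging the latter pair gave -0.058.

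Cd14 and Cx3cr1 were the surface genes with higher means in bKO. Cd14, the co-receptor of lipopolysaccharide, was at 14.9, 13.7 and 19.8 FPKM across the 3 WT libraries and at 28.3, 16.3 and 28.5 FPKM across the 3 bKO libraries. The high values were those of bKO replicates 1 and 3, and bKO replicate 2 lay within the WT range (log2 difference 0.47, 95% interval -0.089 to 1.03, limma adjusted p = 0.418). Without bKO replicate 2 the difference was 0.73 (limma adjusted p = 0.101), and with bKO replicates 1 and 3 averaged it was 0.34 (adjusted p = 0.854). The same libraries stood out for markers of other cells. Acinar markers, of which 13 of 13 were in the table with none at 0, summed to 26333 and 25994 FPKM in bKO replicates 1 and 3, to 11626 in bKO replicate 2 and to 1334, 16613 and 19925 in WT replicates 1, 2 and 3. The 12 stellate cell and fibroblast markers, with none at 0, summed to 557 and 549 FPKM in bKO replicates 1 and 3, to 295 in bKO replicate 2 and to 465, 182 and 175 in WT replicates 1, 2 and 3. The part of these cells in the Cd14 values was not tested. Cx3cr1 was at 0.17, 0.31 and 0.12 FPKM across the 3 WT libraries and at 0.22, 0.38 and 0.32 across the 3 bKO libraries, on 11 to 54 estimated fragments, and the groups overlapped.

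The Fc receptors and the adaptor chains all had lower means in bKO, at 0.697 to 0.811 of WT. Fcgr1, the high-affinity receptor of IgG, was at 1.22, 0.83 and 0.76 FPKM across the 3 WT libraries and at 0.61, 0.68 and 0.67 FPKM across the 3 bKO libraries, without overlap (log2 difference -0.28, limma adjusted p = 0.210). Fcgr2b, the inhibitory IgG receptor, was at 3.07, 1.94 and 2.29 FPKM in WT, against 2.03, 1.5 and 2.12 in bKO in the same order, where the deposited values overlapped and the normalized values did not (limma adjusted p = 0.301). Fcgr3, an activating receptor, was at 6.61 ± 1.77 FPKM in WT, against 5.36 ± 0.96 in bKO. Fcgr2b and Fcgr3 have closely similar extracellular parts, and how reads that match both were shared is not given in the sources used here. Fcer1g, the chain that Fcgr1 and Fcgr3 need for signalling, was at 15.99, 16.4 and 11.9 FPKM across the 3 WT libraries and at 9.12, 11.4 and 12.6 FPKM across the 3 bKO libraries. Only bKO replicate 3 reached into the WT range (log2 difference -0.47, limma adjusted p = 0.269). Tyrobp was at 23.5, 14.7 and 10.02 FPKM in WT, against 11.7, 12.4 and 12.6 in bKO, so that the bKO libraries lay close together within a wide WT range. Its log2 difference was -0.37 with all libraries, -0.072 without WT replicate 1 and -0.65 without WT replicate 3.

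With all 6 libraries, C1qa had the largest negative difference of the list, and the other C1q chains did not follow it to the same extent. Without WT replicate 1 it was at -0.54, level with Trem2 at -0.54, while Cd68 was at -0.67. C1qa was at 54.0, 42.1 and 33.5 FPKM across the 3 WT libraries and at 23.9, 30.2 and 25.2 FPKM across the 3 bKO libraries. The groups did not overlap, with bKO at 0.612 of the WT mean (log2 difference -0.73, SE 0.19, limma adjusted p = 0.173). C1qb was at 19.8, 18.3 and 13.4 FPKM in WT, against 15.7, 15.3 and 15.2 in bKO, and C1qc at 19.0, 13.9 and 11.4 in WT and 11.9, 13.8 and 12.9 in bKO. Both overlapped, with WT replicate 3 below the 3 bKO libraries in each (limma adjusted p = 0.539 and 0.573). The ratio of C1qa to C1qb within a library, which no scaling between libraries touches, was 2.72, 2.30 and 2.50 across the 3 WT libraries and 1.52, 1.98 and 1.67 across the 3 bKO libraries. That of C1qa to C1qc was 2.84, 3.03 and 2.94 in WT and 2.00, 2.19 and 1.95 in bKO, and that of C1qb to C1qc was 1.04, 1.32 and 1.18 in WT and 1.31, 1.11 and 1.17 in bKO. C1qa was lower relative to each of the other chains in every bKO library, and C1qb and C1qc kept overlapping ratios. These ratios were chosen after the values were seen and are given without a test.

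**Figure D3:**
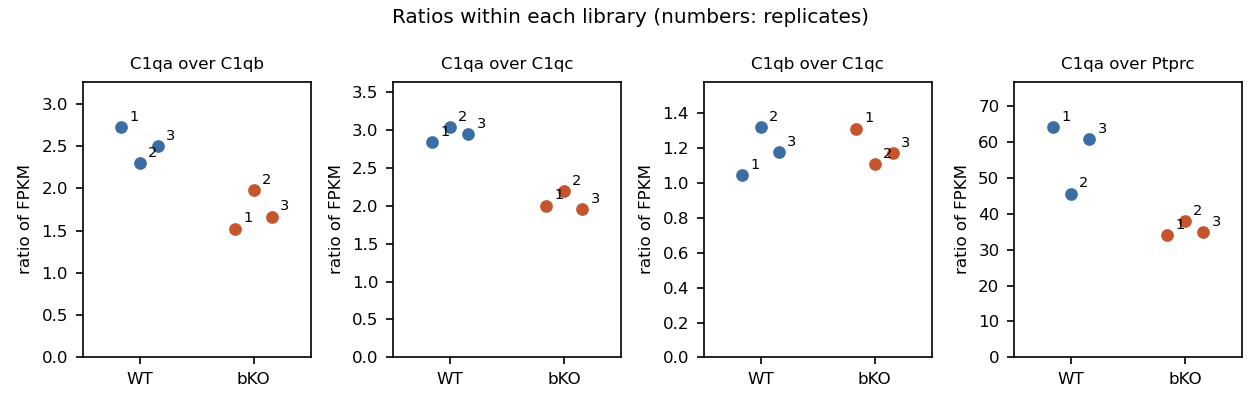
Ratios of FPKM within each library for pairs of C1q chains and for C1qa over Ptprc, with replicate numbers beside the points. The ratio of C1qa to Ptprc was 64.0, 45.6 and 60.7 across the 3 WT libraries and 34.0, 38.0 and 34.9 across the 3 bKO libraries, and C1qb over C1qc is the panel in which the groups overlap. Among ratios to Ptprc that are not drawn, that of Emr1 was lower in every bKO library, and those of Cd68 and H2-Aa overlapped. Cd68 over Ptprc was 20.5, 22.4 and 41.7 in WT, against 20.6, 15.9 and 20.7 in bKO.

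The lysozymes were lower in mean in bKO. Lyz2 was at 52.9, 37.1 and 26.1 FPKM across the 3 WT libraries and at 31.1, 25.5 and 29.5 FPKM across the 3 bKO libraries. The bKO values lay at the lower end of the WT values and overlapped them (log2 difference -0.43, limma adjusted p = 0.478), and the difference was -0.17 without WT replicate 1 and -0.69 without WT replicate 3. Lyz1, the lysozyme of Paneth cells in the mouse gut, was at 0.997, 0.64 and 0.66 FPKM in WT, against 0.56, 0.34 and 0.61 FPKM in bKO. It did not overlap (limma adjusted p = 0.230), but it rested on 17 to 24 estimated fragments in WT and 14 to 18 in bKO. Lyz2 exceeded Lyz1 39.7-fold to 74.8-fold in each library, and reads of the paralogs that match both could have been split between them.

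**Figure D4:**
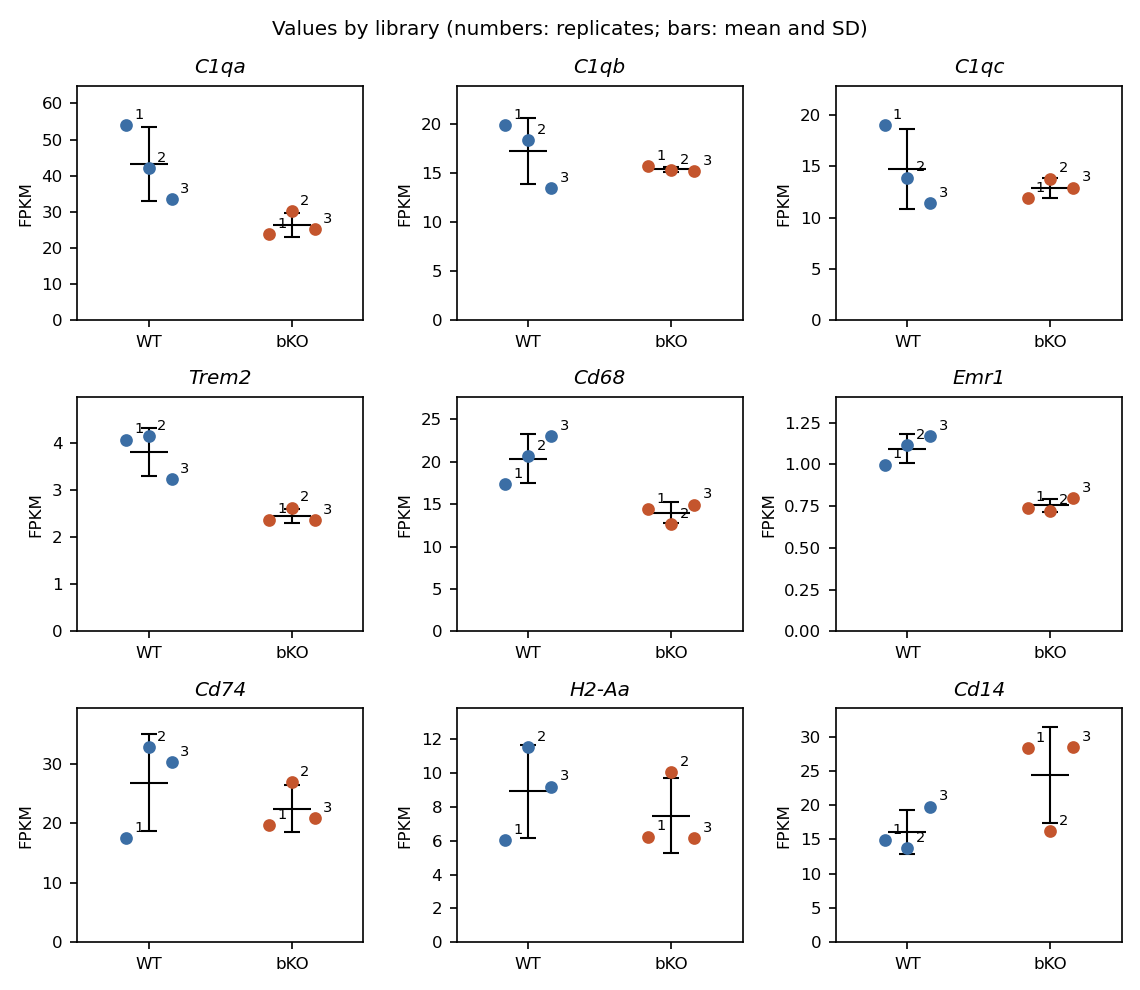
FPKM of 9 genes in each library, with replicate numbers beside the points and bars for the mean and SD of 3 libraries. C1qa, Trem2, Cd68 and Emr1 separate the groups, C1qb and C1qc do not, Cd74 and H2-Aa are low in WT replicate 1, and Cd14 is high in bKO replicates 1 and 3.

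The class II chains were lowest in WT replicate 1, an order that they shared with Lst1. Cd74, the invariant chain, was at 17.5, 32.8 and 30.3 FPKM across the 3 WT libraries and at 19.7, 27.0 and 20.9 FPKM across the 3 bKO libraries. H2-Aa, the class II alpha chain, was at 6.01, 11.5 and 9.18 FPKM in WT, against 6.23, 10.03 and 6.15 in bKO, and H2-Ab1, the beta chain, at 3.93, 8.55 and 7.65 in WT and 6.89, 7.10 and 5.81 in bKO. WT replicate 1 was the lowest of the 6 libraries for these 3 genes, although it was the highest for 20 of the 35, and the groups overlapped in each of the 3. The log2 difference was -0.27 for Cd74 and -0.29 for H2-Aa. It moved to -0.53 and -0.52 without WT replicate 1 and to -0.10 and -0.095 without WT replicate 2. That of H2-Ab1 was -0.039, and it was positive without quantile normalization (0.032) and without WT replicate 2 (0.15), WT replicate 3 (0.068) or bKO replicate 3 (0.040). Ctss, the cathepsin that trims the invariant chain, was instead highest in WT replicate 1. It was at 29.7, 28.4 and 21.5 FPKM in WT, against 18.9, 22.9 and 20.3 FPKM in bKO, with bKO replicate 2 above WT replicate 3 (log2 difference -0.40, limma adjusted p = 0.278).

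The remaining effector genes had lower means in bKO and overlapped. Mpeg1, a pore-forming protein of phagocytes, was at 12.8, 11.4 and 7.73 FPKM across the 3 WT libraries and at 8.36, 8.37 and 8.24 FPKM across the 3 bKO libraries. Of the WT libraries, only WT replicate 3 lay below bKO (log2 difference -0.38, limma adjusted p = 0.377). Cybb, the catalytic subunit of the phagocyte oxidase, was at 1.07 ± 0.16 FPKM in WT, against 0.99 ± 0.037 in bKO. Aif1, the calcium-binding protein Iba1, was at 1.84 ± 0.38 and 1.57 ± 0.46 FPKM. Lst1, a leukocyte transcript of the class III region of the major histocompatibility complex, was at 2.78 ± 1.03 and 2.50 ± 0.75.

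Genes of leukocytes outside the list were set beside it, from lists that were also chosen with results of these data known. Of 32 tested other macrophage genes, 0 were called, and the median difference was -0.051. The difference was negative in 24 (75%), against 53% of all genes. In deposited FPKM, the median ratio of the bKO mean to the WT mean was 1.02 over these 32 genes, against 1.05 over all genes. At an unadjusted p below 0.05, 4 (12.5%) were lower, near the 9.17% of all genes, and 0 were higher, against 5.05%. P2ry12, a purine receptor of resident macrophages and microglia, was at 2.12 ± 0.10 FPKM in WT, against 1.15 ± 0.24 in bKO, without overlap (log2 difference -0.63, limma adjusted p = 0.0968). Clec4d, a C-type lectin that signals through Fcer1g, was at 4.94 ± 0.81 and 3.45 ± 0.52, and Ly96, the MD-2 partner of Toll-like receptor 4, at 23.4 ± 2.21 and 19.5 ± 0.91 FPKM. Of 30 other pan-leukocyte genes, 2 were lower and 2 higher at an unadjusted p below 0.05 (6.67% each, against 9.17% and 5.05% of all genes), with a median of -0.039. After normalization 4 were lower and 4 higher without overlap, where 12.6% and 7.1% of all genes were. The 2 of small p on the lower side were Ptpn6, given below, and Plek, at 1.83 ± 0.33 FPKM in WT, against 1.51 ± 0.078 in bKO (limma adjusted p = 0.266). Those on the higher side, Arhgdib and Alox5ap, were higher in every bKO library, at 7.99 ± 0.42 and 16.8 ± 1.16 FPKM against 5.59 ± 1.07 and 11.7 ± 2.52 in WT (limma adjusted p = 0.241 and 0.266). Of 16 genes of ITAM signalling, 1 (6.25%) was lower at an unadjusted p below 0.05, against 9.17% of all genes, with a median of -0.023. That gene was the phosphatase Ptpn6, at 18.6 ± 0.44 FPKM in WT, against 16.2 ± 1.49 in bKO. Ptpn6 is on the pan-leukocyte list too and was counted there as well. The lists share some other genes, such as Inpp5d. Of 5 other class II genes, H2-DMa, a chain of the peptide editor, was lower without overlap, at 2.77 ± 0.23 and 2.30 ± 0.18. The 25 tested cytokine and chemokine genes had a median of 0.22, with 1 lower (4%) and 3 higher (12%) at an unadjusted p below 0.05 and 0 called. By library, the median was taken over all 26 such genes in the table, on log2(FPKM + 1) without quantile normalization. Relative to the WT mean it was 0.50 and 0.41 in bKO replicates 1 and 3, the libraries with the highest acinar and stellate sums. It was -0.013 in bKO replicate 2 and ran from -0.16 to 0.074 across the 3 WT libraries. The part of those cells in this median was not tested. Ccl22, a chemokine of macrophages and dendritic cells, was at 0.65 ± 0.16 FPKM in WT, against 1.64 ± 0.41 in bKO, without overlap (limma adjusted p = 0.12).

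**Figure D5:**
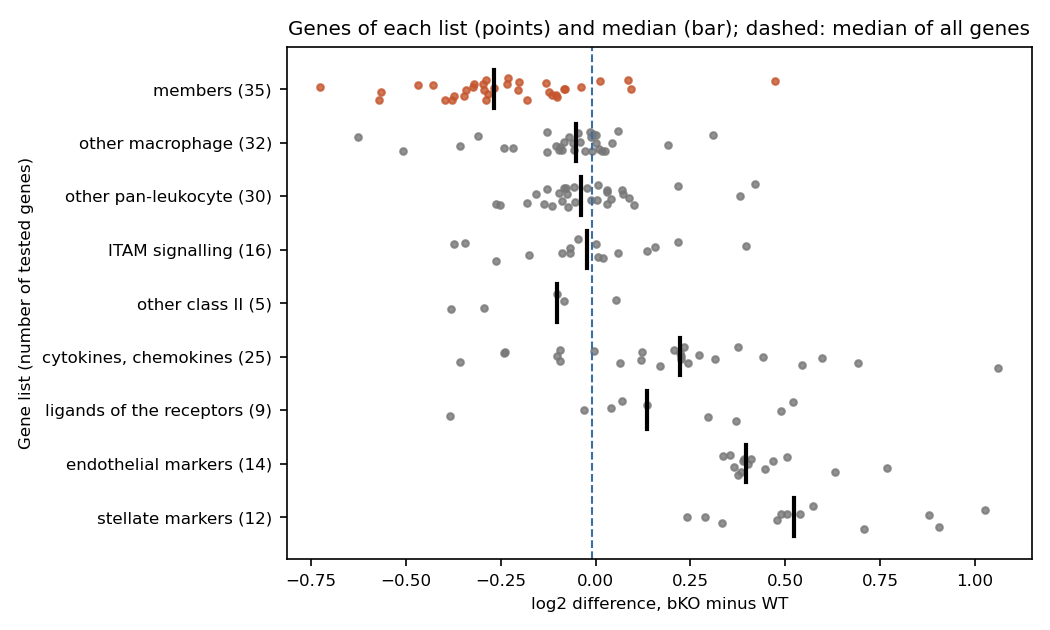
Log2 difference of bKO minus WT for the tested genes of each list (points, scattered vertically at random), with the median of each list as a bar and the median of all genes as a dashed line. The 35 genes have a median of -0.27, other macrophage genes of -0.051, other pan-leukocyte genes of -0.039 and cytokines and chemokines of 0.22.

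Of 9 tested ligands and partners of the receptors in the list, 0 were called. At an unadjusted p below 0.05, 1 was lower and 1 higher (11.1% each, against 9.17% and 5.05% of all genes). Csf1 and Il34, the ligands of Csf1r, were at 27.1 ± 5.40 and 7.65 ± 0.85 FPKM in WT, against 29.7 ± 6.17 and 7.95 ± 0.93 in bKO. Cx3cl1, the ligand of Cx3cr1, was higher in every bKO library, at 6.84 ± 0.48 FPKM against 5.06 ± 0.27 (log2 difference 0.29, limma adjusted p = 0.167). Apoe, a lipoprotein that Trem2 binds, was at 61.9, 66.5 and 49.4 FPKM across the 3 WT libraries and at 42.5, 50.6 and 45.5 FPKM across the 3 bKO libraries, with bKO replicate 2 above WT replicate 3. Mif, a ligand of Cd74, was at 500.2 ± 124 and 573 ± 79.9 FPKM, and Cd47, a surface signal that restrains phagocytosis, at 53.7 ± 6.26 and 56.0 ± 0.79. Icam1, which binds the integrins of Itgam and Itgax, was at 5.13 ± 1.44 and 8.04 ± 1.81 FPKM, the complement component C3 at 12.3 ± 5.16 and 18.9 ± 7.16, and Lbp, which carries lipopolysaccharide to Cd14, at 3.57 ± 2.42 and 5.05 ± 2.18. In bKO replicates 1, 2 and 3, C3 was at 23.1, 10.6 and 23.0 FPKM, Lbp at 6.16, 2.54 and 6.46 and Icam1 at 8.54, 6.04 and 9.55, each lowest in replicate 2. C3 and Lbp overlapped between the groups, and Icam1 overlapped after normalization but not in the deposited FPKM. Csf2 was listed at 0 in WT replicate 2 and at no more than 0.14 FPKM elsewhere.

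Many markers of other leukocytes had no row in the table. The table held 5 of 14 T cell markers, 4 of 8 B cell markers, 6 of 11 neutrophil markers, 4 of 8 dendritic cell markers, 1 of 7 mast cell markers and 2 of 5 red cell markers. The 7 NK cell markers had no row and so were not analysed here. Cd2, a T cell adhesion receptor, was listed at 0 in WT replicate 3 and bKO replicate 3 and at no more than 0.092 FPKM elsewhere. Of the other T cell markers, Thy1, which is on the stellate list too, was at 5.25 ± 2.32 FPKM in WT, against 6.97 ± 2.12 in bKO. Cd247 was at 3.45 ± 0.49 and 3.73 ± 0.17, Lck at 1.74 ± 0.55 and 2.11 ± 0.28 and Zap70 at 0.085 ± 0.060 and 0.086 ± 0.046, all with overlap. Camp of neutrophils, Batf3 of dendritic cells and the haemoglobin gene Hba-a1 were each listed at 0 in at least 1 library. Hba-a1 was at 0, 0.11 and 0.62 FPKM in WT, against 0.72, 0.92 and 0.71 in bKO. Hbb-b1, also of haemoglobin, was at 0.25 ± 0.18 and 0.99 ± 0.39, and Hdc of mast cells at 0.52 ± 0.23 and 0.80 ± 0.067. Both were higher in every bKO library (limma adjusted p = 0.219 and 0.471). The 3 tested dendritic cell markers had positive differences, with a median of 0.14 and 0 without overlap after normalization. Cd79a, a chain of the B cell receptor complex, was at 0.90 ± 0.10 FPKM in WT, against 0.22 ± 0.10 in bKO, without overlap (log2 difference -0.69, limma adjusted p = 0.0531). The other 3 B cell markers overlapped between the groups: Cd79b, its partner chain, was at 0.20 ± 0.17 and 0.25 ± 0.081 FPKM, the adaptor Blnk was at 3.52 ± 0.33 and 3.75 ± 0.20, Cd22 was at 0.10 ± 0.031 and 0.11 ± 0.044, and the median difference of the 4 markers was -0.012. S100a9, a calcium-binding protein of neutrophils and monocytes, was at 0.97, 2.18 and 4.64 FPKM across the 3 WT libraries and at 0.94, 0.19 and 0.40 across the 3 bKO libraries, with WT replicate 1 and bKO replicate 1 almost level. Its partner S100a8 was at 2.82 ± 3.13 and 3.72 ± 2.68 FPKM and lactoferrin, Ltf, at 0.19 ± 0.11 and 0.27 ± 0.13, and the median difference of the 5 tested neutrophil markers was -0.021. Among other cells of the islet, the 14 endothelial markers summed to 200.4 to 217 FPKM in WT and to 297 to 305 FPKM in bKO, with none at 0. After normalization all 14 were higher in every bKO library, against 7.1% of all genes. Of these markers 3 were called, where 0.0626% of all genes were called higher. Whether the makeup of the islet preparations has a part in the values of the macrophage genes was not tested.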

How the data were processed

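The authors deposited 1 table of FPKM for 3 WT and 3 bKO libraries of total islet RNA. Per the labels and the design text, a service provider mapped trimmed reads and ran Cufflinks -G for the transcripts. The submitters' processing notes name the build mm9. For the aligner and strand setting, the sources used here give nothing. The design text names log transformation and quantile normalization, but the deposited FPKM are linear and not quantile normalized. A row of column medians and a blank row were left out, and unmapped columns numbered 0.

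Of the genes, 585 had a 0 in some library and were not tested, 0 of them members. Values were transformed as log2(FPKM + 1), quantile normalized over 6 libraries and tested with limma 3.58.1 in R 4.3.3 (eBayes with trend, two-sided, Benjamini-Hochberg over 15962 genes), after a test on simulated data. Means, SD and folds are of deposited FPKM, and intervals are 95%. Fragments were estimated from FPKM, GENCODE transcript lengths less 240 bases, and the depth at which 62.3% to 69.1% of low values came within 0.1 of a whole number, where 20% would if unrelated; they cover counting error only, and no count test was run on them. All members were named, with up to 3 genes of smallest p and 2 of highest level per other list and every ligand. Outside this rule, Cd22 was named to complete the tested B cell markers, and Cd2, Camp, Batf3 and Hba-a1 as markers with a 0. The members and lists were chosen with earlier results of these data known. Tables and figures were made in Python 3.11.15 with pandas 2.3.3, numpy 2.4.6 and matplotlib 3.10.9.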

Additional observations from a re-analysis of the deposited data

How the results depend on the processing

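Of 14 alternative settings, 0 called a member, and the smallest adjusted p of a member in any was 0.0639, for Cd68. Of 484 values of members under the alternatives, 473 kept their sign. The signs that turned were those of H2-Ab1 (0.032) and Spi1 (0.0041) without quantile normalization, Clec7a (-0.058) with bKO replicates 1 and 3 averaged, and, with 1 library left out, H2-Ab1 (-0.34 to 0.15), Clec7a (-0.23 to 0.44) and Lst1 (-0.43 to 0.013). With 1 library left out, the median difference of the members ranged from -0.30 to -0.17, those lower without overlap from 9 to 22 (25.7% to 62.9%, against 14.3% to 25.9% of all genes) and those higher from 0 to 2 (0% to 5.71%, against 8.78% to 18.7%). Over all genes, 10 were called higher and 21 lower, so that 67.7% of calls were lower; without quantile normalization 19 were higher and 20 lower (51.3%). With 1 library left out the calls ranged from 0 to 23 higher and 0 to 27 lower, and averaging bKO replicates 1 and 3 gave 0 and 0. The difference of Kcnj11 ranged from -2.52 to -2.26 without 1 library and was -2.26 with the pair averaged, and its call was lost when WT replicate 2 or 3, or bKO replicate 1 or 3, was left out, and with the pair averaged (adjusted p = 0.217). The replicate number as a block called 0 higher and 0 lower, with Kcnj11 at -2.35 (adjusted p = 0.0788). The deviations of same-numbered libraries 1, 2 and 3 correlated at -0.183, 0.082 and 0.291 across genes, and WT replicate 3 correlated as highly with bKO replicate 1 (0.292), so the numbers were not taken as pairs. The cause of these changes was not tested. Genes with few fragments, such as Lst1, Lyz1 and Cx3cr1, are limited by counting error.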
